A study of Drosophila melanogaster with 12 samples.

Results

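The 5 genes mthl8, CG6654, CG18853, CG18095 and lncRNA:CR45284 were among those with the largest differences between dppil4 knockdown and control fly heads, and they were chosen for that difference out of 17816 genes in the table. The label under which they were collected was genes nearly silent in 1 genotype, and 4 of the 5 fitted it. CG6654 did not, because its level in knockdown heads was 26.2% of the control level at ZT8 and 27.1% at ZT16. RNA sequencing was done on whole Drosophila melanogaster heads, brain included. Knockdown flies carried UAS-dicer2/UAS-dppil4 RNAi together with tim(UAS)-Gal4/+, and control flies carried UAS-dicer2/+ together with tim(UAS)-Gal4/+. Both genotypes therefore had the dicer2 transgene and a tim(UAS)-Gal4 driver for expression in clock cells, and the hairpin against dppil4 was present in knockdown flies only. Heads came from day 4 of a 12 h light and 12 h dark cycle, at ZT8 in the light phase or ZT16 in the dark phase, and each of the 4 groups had 3 libraries.

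The receptor gene mthl8 belongs to the methuselah family of G protein-coupled receptors, which takes its name from a long-lived and stress-resistant mutant of the founding gene. CG6654, CG18853 and CG18095 code for proteins that the deposited table calls uncharacterized, and lncRNA:CR45284 is a long noncoding RNA. Laboratory fly stocks differ in natural sequence variants, small deletions and transposon insertions, and a gene can be active in one stock and silent in another. The knockdown heads differed from the control heads in the presence of the hairpin, in the chromosome that carries its transgene and in any background that came with that stock. The effects of these on the 5 genes cannot be told apart in this design. In whole heads, fewer cells of a type and less RNA per cell cannot be told apart either. The share of the head tissue in which the driver was active was not measured.

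The libraries held 36885481 to 37676778 reads at ZT8 and 25844821 to 31848667 reads at ZT16, where a read is an expected count of the authors' estimation. All markers of neurons, glia and photoreceptors had reads. Of these, only the photoreceptor sum differed between genotypes in the same direction and without overlap at both times. Over 5 photoreceptor markers the sum was 34537 to 36536 CPM in knockdown libraries and 41222 to 44549 CPM in control libraries at ZT8, and 32548 to 35069 CPM in knockdown libraries and 38950 to 42592 CPM in control libraries at ZT16. Over 4 muscle markers it was 2507 to 3294 CPM in knockdown libraries and 1996 to 2103 CPM in control libraries at ZT8, and 3628 to 4034 CPM in knockdown libraries and 2830 to 3036 CPM in control libraries at ZT16. Fat body markers were higher in knockdown libraries at ZT8 without overlap, and glia markers at ZT16. At ZT8 the glia sums overlapped (1900 to 2135 CPM in knockdown and 1852 to 2080 CPM in control libraries). Neuron markers were lower at ZT8 and higher at ZT16, also without overlap. The eye colour gene w, which serves as a transgene marker, had 665 to 873 CPM in knockdown libraries and 346 to 369 CPM in control libraries at ZT8. The part of these shifts in the differences of single genes and neighbours was not tested. Control ZT16 replicate 1 stood apart, with 1110 CPM (counts per 1000000 reads, scaled for library composition) over 5 midgut markers against a median of 31.9 CPM in the other 11, and with 289 CPM over 5 ovary and eggshell markers against 0.407 CPM. Testis markers reached 2.68 CPM in it. The ZT8 groups were uneven too. Knockdown ZT8 replicate 3 differed from replicates 1 and 2 with a chi-square per degree of freedom of 158 and 173 (19.2 between replicates 1 and 2). For control ZT8 replicate 1 against replicates 2 and 3 it was 122 and 112 (5.48 between replicates 2 and 3). Ribosomal RNA took 5.74%, 7.09% and 2.58% of reads in knockdown and 5.89%, 2.92% and 3.27% in control ZT8 libraries. The part of this in the ZT8 comparisons was not tested. The targeted gene CG5808, which encodes dPPIL4, had 3.91 ± 0.873 CPM in knockdown heads and 4.88 ± 0.0655 CPM in control heads at ZT8 (SD, n = 3; log2 fold change -0.32 ± 0.15 SE, adjusted p = 0.188 by edgeR's quasi-likelihood test). At ZT16 it had 4.08 ± 0.378 CPM in knockdown heads and 5.73 ± 0.519 CPM in control heads (log2 fold change -0.49 ± 0.16 SE, adjusted p = 0.0427 by edgeR). The call of CG5808 at ZT16 was lost without any 1 knockdown ZT16 library, control ZT16 replicate 1 or 2, knockdown ZT8 replicate 1, or control ZT8 replicate 2 or 3 (0.0516 to 0.139). Over both times its log2 fold change was -0.40 ± 0.11 SE (adjusted p = 0.0168 by edgeR), called in every alternative (0.00679 to 0.0468).

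The receptor gene mthl8 lies on 3L at 22428 to 26308 (dm6, plus strand), and no gene of the table on that arm started before it. It was high in control heads and nearly absent from knockdown heads. At ZT8 it had 44, 2 and 6 reads in the knockdown libraries, against 1618, 2057 and 1981 reads in the control libraries. The knockdown libraries at ZT16 had 0, 0 and 0 reads of mthl8, against 1017, 1225 and 1149 reads in the control libraries. Knockdown ZT8 replicate 1 held 44 of the 52 knockdown reads, and every control library lay far above every knockdown library. The mean level was 0.464 ± 0.621 CPM in knockdown heads and 48.3 ± 3.99 CPM in control heads at ZT8 (SD, n = 3). At ZT16 the mean was 0 CPM in knockdown heads and 38.5 ± 3.69 CPM in control heads. The pooled level in knockdown heads was 104-fold lower at ZT8 (95% counting interval 79.3 to 139.6). It was at least 1050-fold lower at ZT16, a bound computed from 3 counts over the 3 knockdown libraries. Without knockdown ZT8 replicate 1 the log2 ratio at ZT8 was -8.82, against -6.70 with all libraries. These values chose the gene, so no test is given for them, and counting intervals and bounds cover counting error only.

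Of the 2 annotated mRNAs of mthl8, variant B, with 7 exons and 3413 bases, took 99.0% of the gene's control reads at ZT8 and 100% at ZT16. The 52 knockdown reads were also all on variant B. The shorter variant A had 29, 28 and 0 reads in the control libraries at ZT8.

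CG6654 lies on 3R at 15211277 to 15213658 (minus strand) and has 1 annotated mRNA of 3 exons. It was lower in knockdown heads at both times but stayed clearly expressed. At ZT8 it had 629, 519 and 540 reads in the knockdown libraries, against 1987, 2438 and 2312 reads in the control libraries. The knockdown libraries at ZT16 had 327, 406 and 436 reads of CG6654, against 1476, 1663 and 1500 reads in the control libraries. The groups did not overlap, and each knockdown library held between 24.5% and 29.2% of the control mean at its time. The mean level was 15.1 ± 1.52 CPM in knockdown heads and 57.6 ± 3.62 CPM in control heads at ZT8 (SD, n = 3). It was 14.3 ± 1.10 CPM in knockdown heads and 52.7 ± 3.53 CPM in control heads at ZT16. The pooled level was thus 3.82-fold lower in knockdown heads at ZT8 (95% counting interval 3.62 to 4.03) and 3.69-fold lower at ZT16 (3.46 to 3.93).

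CG18853 lies on 2R at 7829062 to 7830429 (plus strand) and has 1 annotated mRNA of 4 exons. It showed the opposite pattern to mthl8, with reads in every knockdown library and in no control library. It had 487, 554 and 564 reads in the knockdown libraries at ZT8 and 287, 335 and 446 reads in the knockdown libraries at ZT16. All 6 control libraries had 0 reads. The mean level in knockdown heads was 14.4 ± 1.19 CPM at ZT8 and 12.9 ± 1.57 CPM at ZT16 (SD, n = 3), and in control heads it was 0 CPM at both times. With a floor of 3 counts over the control libraries of a time, the knockdown level was at least 559-fold higher at ZT8 and at least 383-fold higher at ZT16. Over both times it was at least 943-fold higher, the floor being 3 counts over the 6 control libraries.

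CG18095 (2L, 14029262 to 14031539) and lncRNA:CR45284 (2L, 14032006 to 14038306) lie on the minus strand 466 bases apart, and both were high in knockdown heads. CG18095 had 270, 272 and 225 reads in the knockdown libraries at ZT8, against 6, 6 and 5 reads in the control libraries. At ZT16 it had 144, 170 and 185 reads in the knockdown libraries, against 46, 3 and 0 reads in the control libraries. The 46 reads of control ZT16 replicate 1, the library with midgut and ovary transcripts, were the highest of any control library and still below every knockdown library. The mean level was 6.88 ± 0.885 CPM in knockdown heads and 0.146 ± 0.0190 CPM in control heads at ZT8 (SD, n = 3). It was 6.09 ± 0.318 CPM in knockdown heads and 0.554 ± 0.872 CPM in control heads at ZT16. The pooled level in knockdown heads was 47.1-fold higher at ZT8 (95% counting interval 29.2 to 81.3) and 10.97-fold higher at ZT16 (8.17 to 15.0). Without control ZT16 replicate 1 the log2 ratio at ZT16 was 6.90, against 3.46 with it, and without replicate 3 it was 2.87.

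The noncoding gene lncRNA:CR45284 is annotated as 1 unspliced transcript of 6301 bases. It had 454, 539 and 425 reads in the knockdown libraries at ZT8, against 2, 5 and 2 reads in the control libraries. At ZT16 it had 290, 270 and 378 reads in the knockdown libraries, against 0, 0 and 8 reads in the control libraries. Unlike CG18095, it had 0 reads in control ZT16 replicate 1, and the 8 reads came from replicate 3. The mean level was 12.7 ± 1.98 CPM in knockdown heads and 0.0765 ± 0.0422 CPM in control heads at ZT8 (SD, n = 3). It was 11.4 ± 1.12 CPM in knockdown heads and 0.0911 ± 0.158 CPM in control heads at ZT16. The pooled level in knockdown heads was 165-fold higher at ZT8 (95% counting interval 86.4 to 361) and 126-fold higher at ZT16 (63.8 to 293). The log2 ratio of lncRNA:CR45284 at ZT16 was 6.98 with all libraries, at least 7.81 without control ZT16 replicate 3, and 6.39 without replicate 1.

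**Figure D1:**
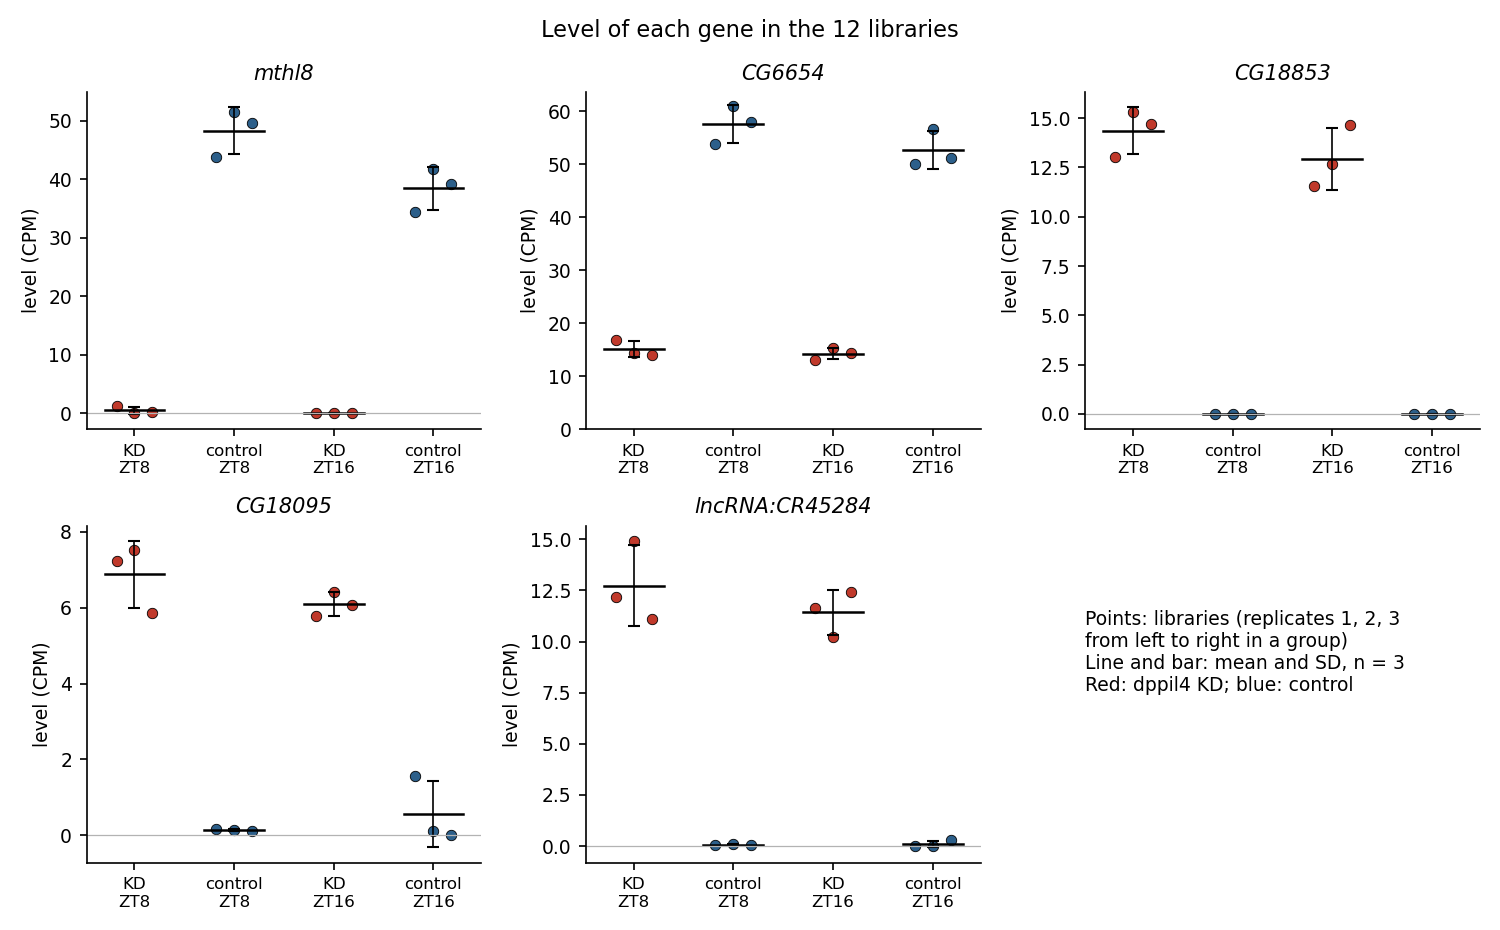
Level in CPM (vertical axis) of mthl8, CG6654, CG18853, CG18095 and lncRNA:CR45284 in each library, by group (horizontal axis, KD for knockdown), with the mean and SD of 3 libraries. mthl8 and CG6654 are low in knockdown heads, with CG6654 still near 15.1 and 14.3 CPM there, and the other 3 genes are at or near 0 in control heads.

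At neither time did the groups of any of the 5 genes overlap. In the same contrast, 15.6% of the 10717 genes tested were called changed at ZT8 and 22.2% at ZT16 by edgeR, a measure other than overlap. The 5 were selected on this contrast, so nothing follows from their count or from their lack of overlap. Per transcript length, the genes differed widely in the genotype where they were high. There CG6654 had a mean of 38.2 ± 5.56 TPM (transcripts per 1000000), mthl8 19.5 ± 4.32 TPM, CG18853 19.2 ± 2.29 TPM, CG18095 5.82 ± 0.719 TPM and lncRNA:CR45284 2.61 ± 0.379 TPM (SD over 6 libraries of both times). In that order mthl8 and CG18853 did not differ beyond their spread, while the other neighbours did. Within a group of 3 libraries of the high genotype, the highest CPM value was 1.11 to 1.35 times the lowest, so replicates varied little beside the difference between genotypes.

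Time of day did not enter the choice of the 5 genes and was tested for each gene in the genotype where it was expressed, as ZT16 against ZT8. None of these changes passed the test, whereas 23.7% of all tested genes were called in control heads and 23.2% in knockdown heads. The fit held all 12 libraries, so its estimate of spread also drew on the other genotype, where all but CG6654 were nearly silent. A missing call therefore does not measure the spread within the expressed genotype alone. In control heads mthl8 had 38.5 CPM at ZT16 and 48.3 CPM at ZT8, and all 3 ZT16 libraries lay below all 3 ZT8 libraries (log2 fold change -0.33 ± 0.37 SE, adjusted p = 0.567 by edgeR's quasi-likelihood test). With only the control libraries in the fit this change was called (-0.36 ± 0.094 SE, adjusted p = 0.0394 by edgeR). Over all alternatives its adjusted p ran from 0.0179 to 0.836. For CG6654 the groups overlapped in both genotypes, and the log2 fold change was -0.08 ± 0.087 SE in knockdown heads (adjusted p = 0.548) and -0.13 ± 0.082 SE in control heads (adjusted p = 0.275). The knockdown effect on CG6654 at ZT16 differed from that at ZT8 by 0.05 ± 0.12 SE on the log2 scale (adjusted p = 0.857), a comparison in which 4.18% of all genes were called. In knockdown heads the log2 fold changes of CG18853 (-0.15 ± 0.12 SE), CG18095 (-0.17 ± 0.66 SE) and lncRNA:CR45284 (-0.16 ± 0.31 SE) had adjusted p values of 0.412, 0.884 and 0.769 by the same test, and the groups overlapped.

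Genes around the 5 were not used to choose them and were compared between genotypes in the fit over all genes. Within 50 kb of at least 1 of them lay 67 other genes of the table, of which 49 passed the filter on low counts and 18 did not. At ZT8, 10 of the 49 were called changed (6 higher and 4 lower in knockdown heads), a share of 20.4% against 15.6% over all genes (8.84% higher, 6.76% lower). At ZT16, 14 were called (7 higher, 7 lower), 28.6% against 22.2% over all genes (11.2% higher, 11% lower). Over both times, 20 were called (12 higher, 8 lower), 40.8% against 28.8% over all genes (14.7% higher, 14.1% lower). The median absolute log2 fold change over both times was 0.17 for the 49 and 0.13 for all genes. On log2(TPM + 0.1) with limma the calls were 3 higher and 8 lower at ZT8, 7 higher and 8 lower at ZT16, and 9 higher and 14 lower over both times. The count of 10 at ZT8 fell to 5 without knockdown ZT8 replicate 1 or 2 or control ZT8 replicate 2, and to 6 without control ZT8 replicate 3. The share over all genes fell as well, to 8.49%, 9.26%, 6.21% and 6.76% in the same order. By distance, 10 of 20 genes within 10 kb, 10 of 29 between 10 and 50 kb and 44 of 182 between 50 and 250 kb were called over both times. Within 50 kb the genes differed in their surroundings. Near CG6654, 6 of 22 tested neighbours were called over both times, with a median absolute log2 fold change of 0.11. Near CG18853 8 of 18 were called, with a median of 0.16, and near CG18095 5 of 7, with a median of 0.75. The contrast depended on the distance. Within 100 kb, 6 of 22 were called near CG18095 (median 0.26) and 14 of 38 near CG6654 (median 0.17).

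**Figure D2:**
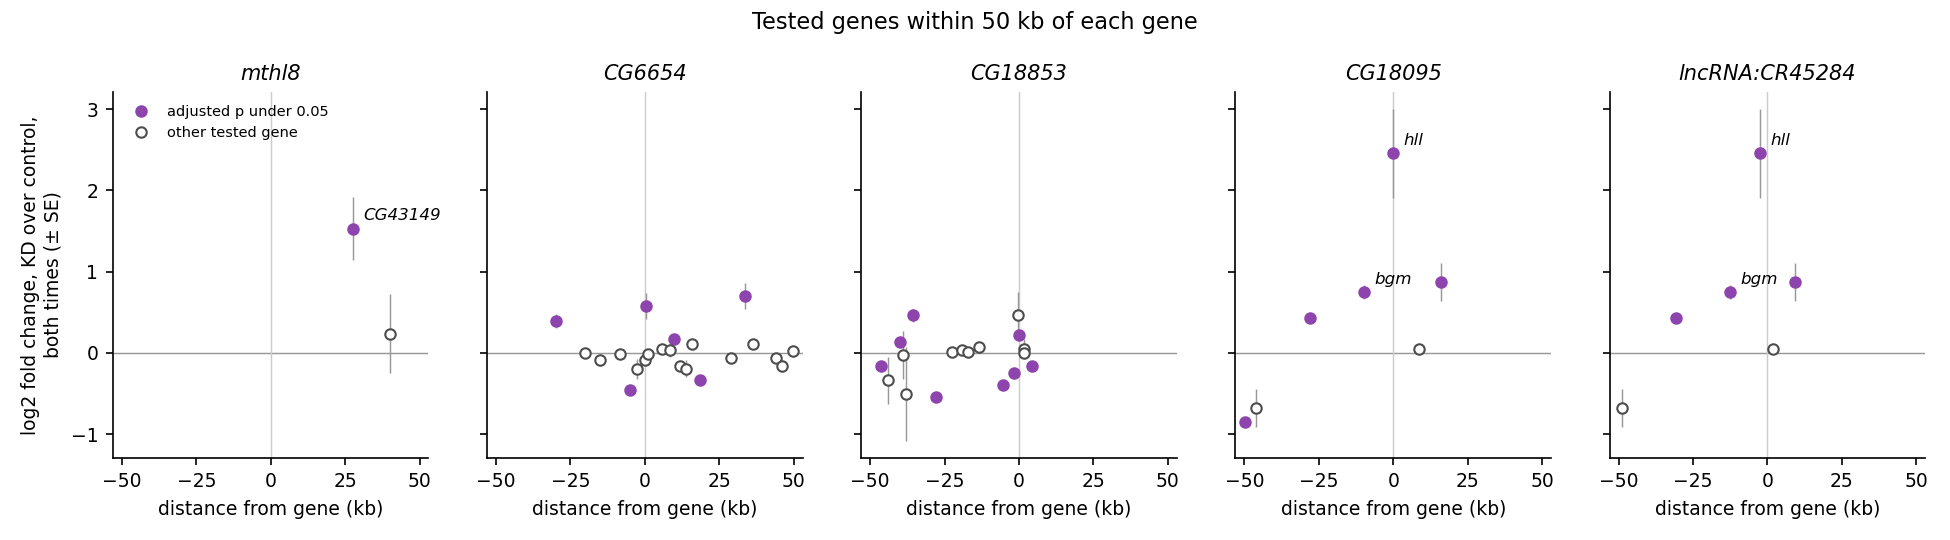
Log2 fold change of knockdown over control over both times, with its SE (vertical axis), of each tested gene against its distance in kb from mthl8, CG6654, CG18853, CG18095 or lncRNA:CR45284 (horizontal axis, negative to the left). Filled points have an adjusted p under 0.05. The highest point is hll at 2.46, next to CG18095, and the genes around CG6654 and CG18853 stay between -1 and 1.

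On 2L the expressed genes beside CG18095 and lncRNA:CR45284 were hll and bgm on the left and nAChRalpha5 and NimC4 on the right. The gene hll is related to the acyl-CoA synthetase gene bgm, the next tested gene to its left. On the plus strand hll runs towards CG18095, and it overlaps CG18095 by 107 bases. It had 238, 187 and 278 reads in the knockdown libraries at ZT8, against 13, 41 and 35 reads in the control libraries. The knockdown libraries at ZT16 had 92, 76 and 140 reads of hll, against 78, 7 and 5 reads in the control libraries. The groups did not overlap at ZT8, and in CPM they did not overlap at ZT16 either (lowest knockdown library 2.87 CPM, highest control library 2.64 CPM). The gene was called higher in knockdown heads at ZT8 (6.27 ± 1.04 against 0.752 ± 0.354 CPM; log2 fold change 3.05 ± 0.78 SE, adjusted p = 0.0288 by edgeR) and over both times (2.46 ± 0.55 SE, adjusted p = 0.00958). At ZT16 it did not pass the test (3.72 ± 0.861 against 1.02 ± 1.41 CPM; log2 fold change 1.87 ± 0.78 SE, adjusted p = 0.114). The 78 reads of control ZT16 replicate 1 decided that value, since without this library the log2 fold change at ZT16 was 4.16 ± 0.47 SE (adjusted p = 3.09e-04 by edgeR). With limma on log2(TPM + 0.1) and all libraries it was 2.39 (adjusted p = 0.0481). The call at ZT8 ended without any 1 of the ZT8 libraries of either genotype or of the knockdown ZT16 libraries, with adjusted p values of 0.0606 to 0.120, and with no filter on low counts (0.0688).

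The overlap between hll and CG18095 could let reads of one be counted for the other, and whether the authors counted by strand is not given in the sources used here. Variants A and B of CG18095 contain the 107 shared bases, while variant C ends 252 bases short of hll. In knockdown heads variant C took 96.5% of the reads of CG18095 at ZT8 and 93.6% at ZT16. In control ZT16 replicate 1, by contrast, 38 of the 46 reads were on variants A and B and 8 were on variant C. The genes hll and CG18095 were thus both higher there than in the other control ZT16 libraries, in the library with midgut and ovary transcripts, whose part in these values was not tested.

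**Figure D3:**
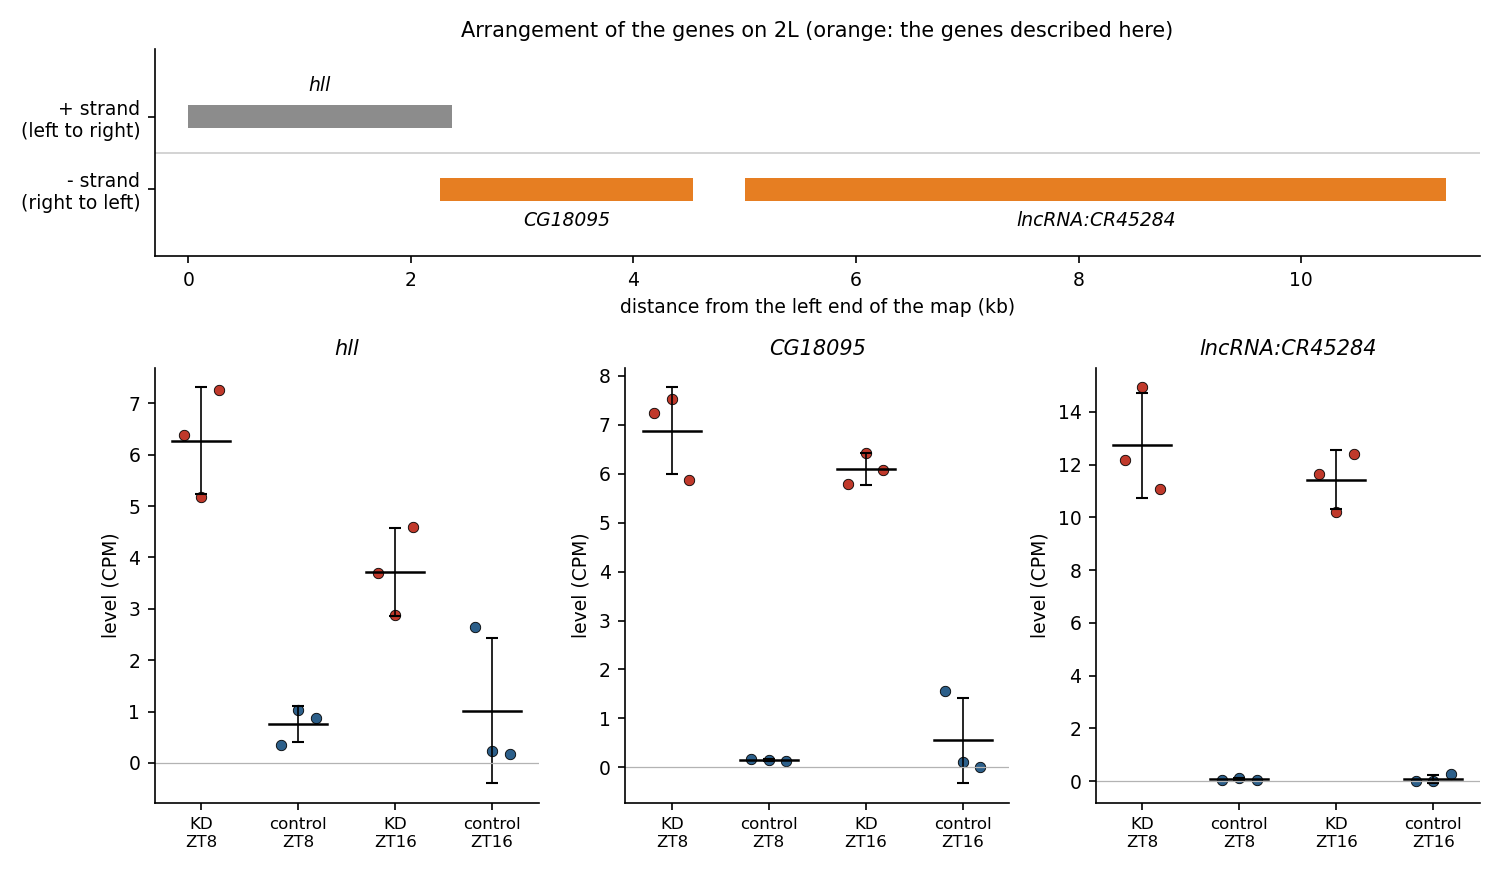
Top, positions of hll, CG18095 and lncRNA:CR45284 by strand, as distance in kb from the left end of hll. Bottom, level of each gene in CPM (vertical axis) in every library by group (horizontal axis), with the mean and SD of 3 libraries. All 3 genes are higher in the knockdown libraries, and among control ZT16 libraries the left point, replicate 1, is the highest for hll and CG18095 but not for lncRNA:CR45284.

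The other genes of this stretch differed less, in either direction. Cyp28a5, a cytochrome P450 gene 49692 bases from CG18095, was lower in knockdown heads at ZT8 (51.3 ± 5.51 CPM in knockdown heads and 93.2 ± 1.61 CPM in control heads; log2 fold change -0.86 ± 0.064 SE, adjusted p = 6.89e-06 by edgeR). It was lower to a like extent at ZT16 (57.1 ± 1.04 CPM in knockdown heads and 101.9 ± 2.12 CPM in control heads; log2 fold change -0.84 ± 0.064 SE, adjusted p = 9.33e-06 by edgeR). rk, the receptor gene for the hormone bursicon, was higher at ZT16 (log2 fold change 0.62 ± 0.090 SE, adjusted p = 8.36e-04 by edgeR) and had 0.23 ± 0.087 SE at ZT8 (adjusted p = 0.0972). Cyp28a5 and rk were chosen after their values were seen.

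bgm, which encodes a very-long-chain acyl-CoA synthetase, had 161, 183 and 147 CPM in the knockdown libraries at ZT16, against 74.2, 65.8 and 56.7 CPM in the control libraries (log2 fold change 1.32 ± 0.13 SE, adjusted p = 1.35e-04 by edgeR). At ZT8 it had 185, 165 and 146 CPM in the knockdown libraries, against 166, 139 and 132 CPM in the control libraries (log2 fold change 0.18 ± 0.13 SE, adjusted p = 0.377 by edgeR). bgm therefore fell with time in control heads (ZT16 against ZT8, log2 fold change -1.15 ± 0.13 SE, adjusted p = 2.17e-04 by edgeR), while in knockdown heads the value was -0.02 ± 0.13 SE (adjusted p = 0.951). NimC4, a phagocytic receptor of the Nimrod family, rose at ZT16 (4.03 ± 0.162 CPM in knockdown heads and 1.70 ± 0.460 CPM in control heads; log2 fold change 1.24 ± 0.33 SE, adjusted p = 0.0201 by edgeR). Its call at ZT16 was lost when any 1 knockdown ZT16 library was left out (adjusted p 0.0531 to 0.0580), and also without replicate 1 (0.0522) or replicate 3 (0.0648) of the control ZT16 libraries. At ZT8 the log2 fold change of NimC4 was 0.51 ± 0.33 SE (adjusted p = 0.334 by edgeR). nAChRalpha5, a nicotinic acetylcholine receptor subunit whose span starts 1863 bases from lncRNA:CR45284, rose slightly at ZT16 (166 ± 4.00 CPM in knockdown heads and 140 ± 6.23 CPM in control heads; log2 fold change 0.25 ± 0.069 SE, adjusted p = 0.0241 by edgeR). Leaving out knockdown ZT16 replicate 1 (0.0687), knockdown ZT16 replicate 3 (0.0785) or control ZT16 replicate 1 (0.0785) ended this call. On log2(TPM + 0.1) with limma its adjusted p was 0.198. Over both times the log2 fold change of nAChRalpha5 was 0.04 ± 0.049 SE (adjusted p = 0.519 by edgeR).

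On 2R, CG18853 and CG30382 form a pair that points tail to tail and overlaps by 17 bases, and the pair to its left, phr and Prosalpha1, has the same arrangement with an overlap of 17 bases. phr encodes a DNA photolyase, Prosalpha1 a proteasome alpha subunit, and the reference annotation names CG30382 Prosalpha1R. Whether the pairs share sequence was not examined here, as no genome sequence was used, and reads of near-identical copies could be split between them by the estimation. phr had 42.9 ± 1.09 CPM in knockdown heads and 48.0 ± 2.39 CPM in control heads at ZT8 (SD, n = 3; log2 fold change -0.16 ± 0.077 SE, adjusted p = 0.176 by edgeR). At ZT16 it had 38.1 ± 0.765 CPM in knockdown heads and 48.1 ± 6.14 CPM in control heads, and it was called lower (log2 fold change -0.34 ± 0.077 SE, adjusted p = 0.0106 by edgeR). Without knockdown ZT16 replicate 1 its adjusted p at ZT16 was 0.0562. The sum of CG18853 and phr was 57.2 ± 2.27 CPM in knockdown heads and 48.0 ± 2.39 CPM in control heads at ZT8. At ZT16 the sum was 51.0 ± 2.33 CPM in knockdown heads and 48.1 ± 6.14 CPM in control heads. The sums of the genotypes therefore overlapped at ZT16 (48.9 to 53.5 CPM in knockdown libraries and 42.8 to 54.8 CPM in control libraries) and did not overlap at ZT8 (54.8 to 59.2 CPM and 45.6 to 50.4 CPM), unlike CG18853 alone, which was at 0 in every control library. phr and the sums were chosen after their values were seen.

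CG30382 had 96.97, 92.9 and 112 CPM in the knockdown libraries at ZT8, against 84.3, 78.8 and 76.1 CPM in the control libraries. It was called higher (log2 fold change 0.33 ± 0.068 SE, adjusted p = 0.00761 by edgeR), but on log2(TPM + 0.1) with limma the adjusted p was 0.0840. At ZT16 its log2 fold change was 0.10 ± 0.068 SE (adjusted p = 0.291 by edgeR). Prosalpha1 had 6.42 ± 2.56 CPM in knockdown heads and 2.77 ± 1.66 CPM in control heads at ZT8, a difference that did not pass the test (log2 fold change 1.21 ± 0.40 SE, adjusted p = 0.0689 by edgeR). At ZT16 Prosalpha1 had 4.17 ± 0.869 CPM in knockdown heads and 5.08 ± 0.933 CPM in control heads (log2 fold change -0.28 ± 0.40 SE, adjusted p = 0.656 by edgeR). The sum of Prosalpha1 and CG30382 was 98.8 to 115.7 CPM in knockdown and 80.5 to 86.3 CPM in control libraries at ZT8, without overlap. At ZT16 the sums overlapped (90.4 to 96.5 CPM in knockdown and 83.0 to 91.5 CPM in control libraries). On the other side of CG18853, the autophagy gene Atg10 had a log2 fold change of 0.05 ± 0.12 SE over both times (adjusted p = 0.797 by edgeR). Farther from CG18853, the protease gene cathD (-0.39 ± 0.041 SE, adjusted p = 4.57e-05 by edgeR) and the polymerase gene DNApol-zeta (-0.54 ± 0.053 SE, adjusted p = 3.03e-05 by edgeR) were lower over both times, and were chosen after their values were seen. The value of DNApol-zeta was -0.26 ± 0.074 SE at ZT8 (adjusted p = 0.0341 by edgeR). At ZT16 it was -0.82 ± 0.075 SE (adjusted p = 3.72e-05 by edgeR).

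**Figure D4:**
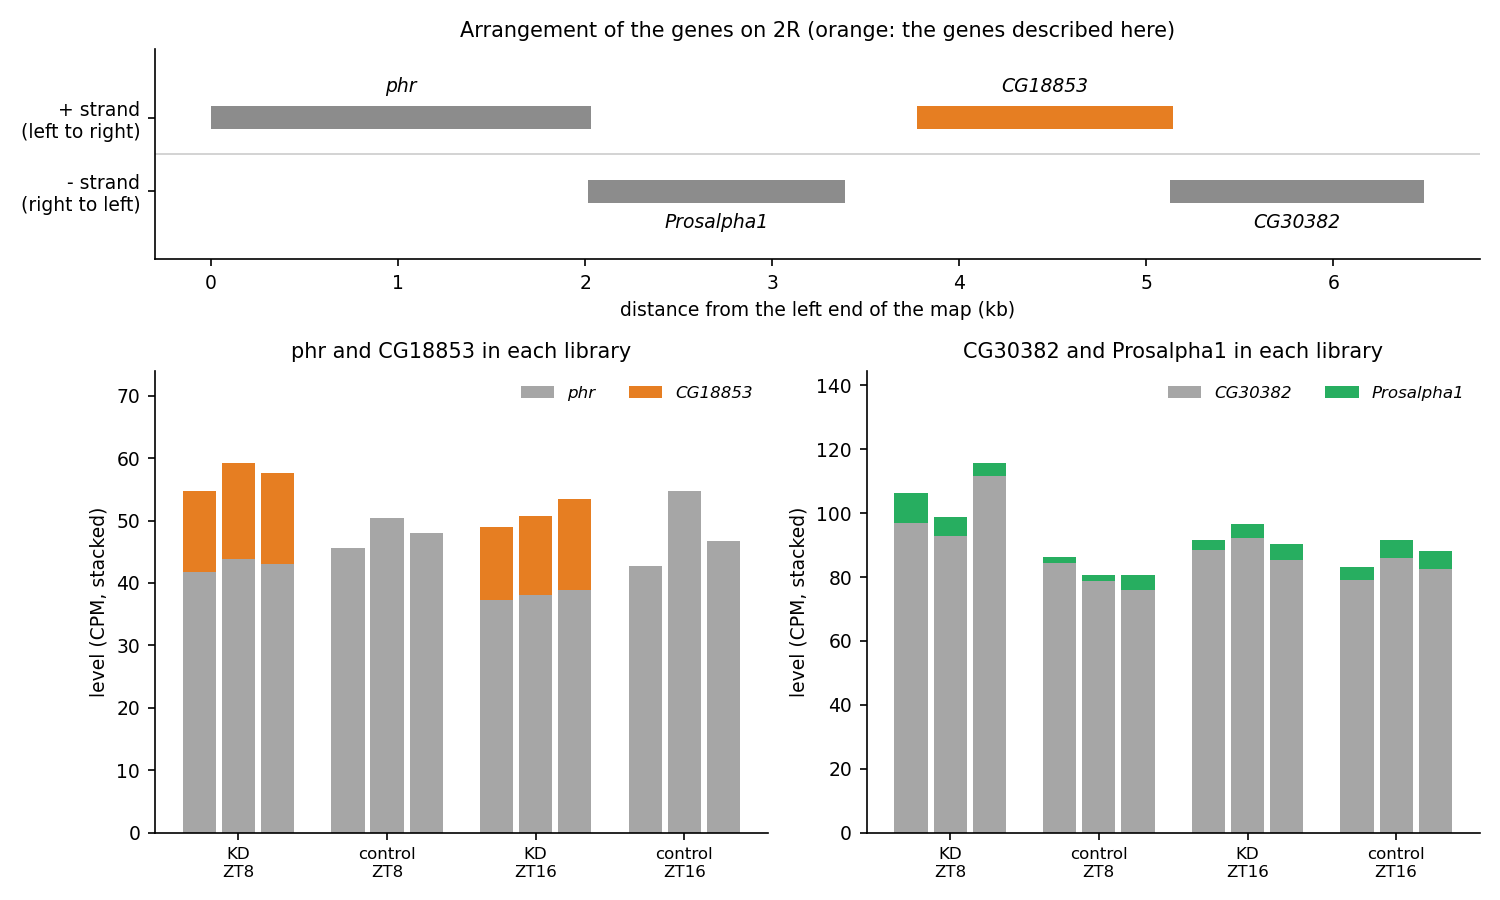
Top, positions of phr, Prosalpha1, CG18853 and CG30382 by strand, as distance in kb from the left end of phr. Bottom, stacked levels in CPM (vertical axis) of phr and CG18853 (left) and of CG30382 and Prosalpha1 (right), 1 bar per library by group (horizontal axis), from 0. CG18853 is present in the 6 knockdown libraries and missing from the 6 control libraries, while phr is present in all 12.

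Beside CG6654, 6 of 22 tested neighbours were called over both times, all by less than 1 on the log2 scale. That share of 27.3% lay near the 28.8% called over all genes. The serpin gene Spn88Ea, 4829 bases from CG6654, was lower at each time (log2 fold change -0.41 ± 0.076 SE, adjusted p = 0.00492 at ZT8, and -0.50 ± 0.076 SE, adjusted p = 0.00112 at ZT16, by edgeR). It had 74.3 ± 1.81 CPM in knockdown heads and 105.1 ± 2.99 CPM in control heads at ZT16. Over both times the ATM kinase gene tefu was lower (-0.34 ± 0.059 SE, adjusted p = 0.00166 by edgeR). The ammonium transporter gene Amt (0.70 ± 0.16 SE, adjusted p = 0.00857 by edgeR) and the muscle gene Mf (0.40 ± 0.087 SE, adjusted p = 0.00672 by edgeR) were higher, Mf beside muscle marker sums that were also higher. CG31344 was the remaining called gene (0.17 ± 0.041 SE, adjusted p = 0.00940 by edgeR, and 0.219 with limma on log2(TPM + 0.1)). These 5 genes were chosen after their values were seen. Mau2, a subunit of the cohesin loader, overlaps CG6654 by 71 bases on the opposite strand and had 11.8 ± 0.513 CPM in knockdown heads and 12.2 ± 0.527 CPM in control heads at ZT8 (log2 fold change over both times -0.09 ± 0.047 SE, adjusted p = 0.194 by edgeR). The neighbouring serpin gene Spn88Eb had a log2 fold change of -0.20 ± 0.12 SE over both times (adjusted p = 0.252 by edgeR). CG4210, which lies 315 bases from CG6654, was called higher over both times (0.58 ± 0.16 SE, adjusted p = 0.0180 by edgeR) and at neither time alone. The called differences were all smaller than that of CG6654 itself, whose log2 ratio over both times was -1.91. CG6654 was chosen for the size of this difference, so nothing follows from that order.

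Beside mthl8 the table held no gene within 10 kb, and of 7 genes within 50 kb 2 were tested. CG43149, 27564 bases away, had 93, 100 and 52 reads in the knockdown libraries at ZT8, against 7, 26 and 16 reads in the control libraries. It was called higher there (log2 fold change 2.39 ± 0.56 SE, adjusted p = 0.0160 by edgeR), the opposite direction to mthl8. The call ended without knockdown ZT8 replicate 1 (0.0554) or 2 (0.0593) or control ZT8 replicate 3 (0.0772). The knockdown libraries at ZT16 had 26, 44 and 64 reads of CG43149, against 9, 37 and 43 reads in the control libraries, so the groups overlapped (log2 fold change 0.67 ± 0.54 SE, adjusted p = 0.398 by edgeR). The larval serum protein gene Lsp1gamma, the other tested neighbour, was not called in any of the 3 comparisons.

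The reference annotation places 5 transposable elements of the INE-1 and pogo families within 10 kb of mthl8, 1 Burdock element within 10 kb of CG18853, and none within 10 kb of CG6654, CG18095 or lncRNA:CR45284. None overlaps a gene of the 5. Elements that the fly stocks carry beyond the reference were not measured.

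No other methuselah gene that was tested showed a difference of the size of mthl8, which was itself chosen for its difference. Of the 15 other methuselah genes of the table, 10 were tested, and at ZT8 0 were called in either direction by edgeR, beside 8.84% called higher and 6.76% called lower over all genes. At ZT16 0 were called higher and 2 lower, beside 11.2% called higher and 11% called lower over all genes. mthl3 had 4.00 ± 0.266 CPM in knockdown heads and 7.46 ± 0.485 CPM in control heads at ZT16 (log2 fold change -0.90 ± 0.19 SE, adjusted p = 0.00651 by edgeR). mthl9 had 1.01 ± 0.124 CPM in knockdown heads and 1.86 ± 0.528 CPM in control heads at ZT16 (log2 fold change -0.88 ± 0.28 SE, adjusted p = 0.0410 by edgeR). The call of mthl9 was lost without knockdown ZT8 replicate 2, control ZT8 replicate 3, any 1 knockdown ZT16 library, or control ZT16 replicate 1 or 3 (adjusted p 0.0546 to 0.139). Over both times 0 were called higher and 2 lower, beside 14.7% and 14.1% over all genes. These were mthl9 (-0.71 ± 0.19 SE, adjusted p = 0.0164 by edgeR) and mthl14 (-0.54 ± 0.17 SE, adjusted p = 0.0336 by edgeR). The call of mthl14 was lost without any 1 of the knockdown ZT16 libraries, knockdown ZT8 replicate 1 or 3, control ZT8 replicate 2 or 3, or control ZT16 replicate 1 or 2 (0.0529 to 0.0892).

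The on and off pattern was then counted over the whole table, as a mean of at most 0.5 CPM over the 6 libraries of one genotype and of at least 5 CPM over the 6 of the other. It was met by 61 genes, 0.342% of the table, with 7 on in knockdown heads and 54 on in control heads, and 4 of the 5 genes described here were among them. The 10 with the highest level in the genotype where they were on were CG12374, Jon99Ciii, mthl8, Jon99Cii, alphaTry, Jon65Aiv, Jon25Biii, yl, dec-1 and LysD. Among these the Jon genes and alphaTry encode serine proteases of the gut, and yl and dec-1 are genes of the ovary. In 51 of the 54 genes on in control heads, control ZT16 replicate 1 was the highest control library. Without that library 9 genes met the thresholds, 0.0505% of the table, of which 6 were on in knockdown heads and 3 in control heads. These 9 were CG18853, lncRNA:CR45284, CG18095, the cytochrome P450 gene Cyp12d1-d, the heat shock cognate gene Hsc70-2 and CG11854, on in knockdown heads, and mthl8, asRNA:CR45822 and asRNA:CR45835, on in control heads. The list of 9 was named after its values were seen.

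Over all 12 libraries, the lowest library of the high genotype lay above the highest of the other for 10 of the 61 genes, mthl8, CG18853, CG18095 and lncRNA:CR45284 among them. Of these 4, CG18095 lay closest to the thresholds, with a mean of 6.49 CPM in knockdown heads and 0.350 CPM in control heads. CG6654 fell outside them with 14.7 CPM in knockdown heads and 55.1 CPM in control heads. Ranked over 17816 genes by the absolute log2 ratio of mean CPM + 0.5 without control ZT16 replicate 1, mthl8 was at place 1, CG18853 at 3, lncRNA:CR45284 at 4, CG18095 at 11 and CG6654 at 48. With all 12 libraries the places were 7, 24, 33, 71 and 197.

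**Figure D5:**
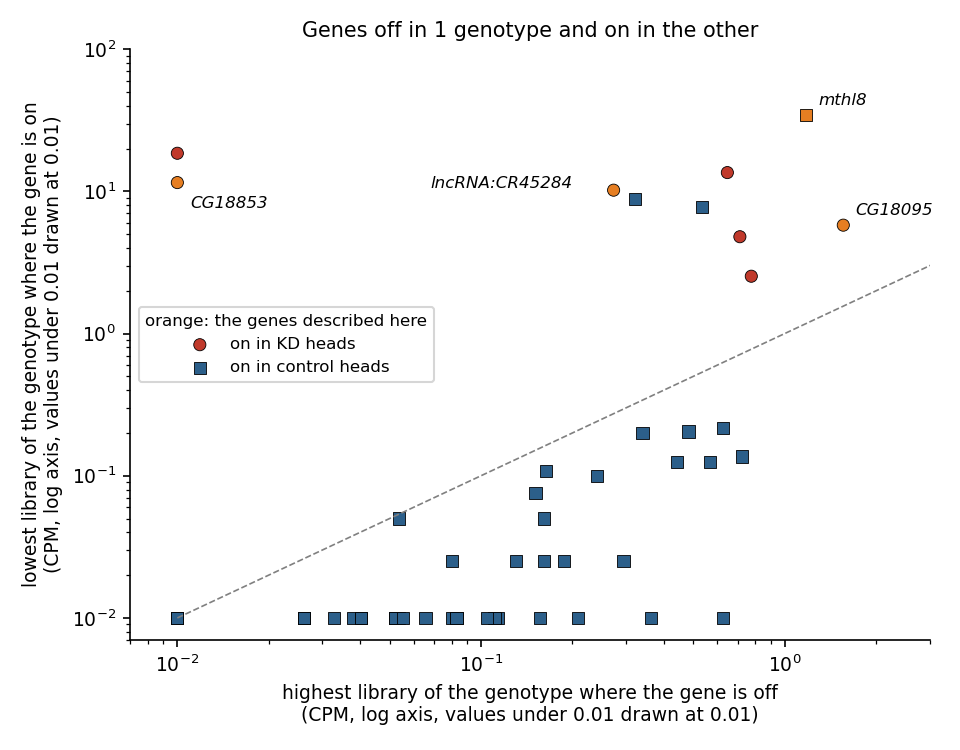
The 61 genes with the on and off pattern, each with its highest library in the genotype where it is off (horizontal axis, CPM, log) and its lowest library in the genotype where it is on (vertical axis, CPM, log), values under 0.01 drawn at 0.01. Circles are on in knockdown heads and squares in control heads. The 10 points above the dashed line of equality include mthl8, CG18853, CG18095 and lncRNA:CR45284.

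The genes whose levels followed those of the 5 most closely were searched among 9599 genes by the Pearson correlation of log2(CPM + 0.5) over the 12 libraries. The libraries fall into genotypes, so any gene that separates the genotypes scores high, and the values are a description. The pattern of mthl8 was most like those of CG6654 (0.995), asRNA:CR45822 (0.990) and disp (0.986), and CG6654 was most like mthl8 (0.995), disp (0.991) and asRNA:CR45822 (0.989). CG18853 was most like Cyp12d1-d (0.998), lncRNA:CR45284 (0.997) and Hsc70-2 (0.995), which with CG18853 also led for lncRNA:CR45284. CG18095 was most like CG31157 (0.984), hpRNA:CR33940 (0.979) and CG34195 (0.977) and had a coefficient of 0.945 with its neighbour lncRNA:CR45284. The most opposite genes were CG18853 (-0.988), CG30059 (-0.987) and CG11842 (-0.985) for mthl8, and CG43291 (-0.979), Ist1 (-0.972) and Apl (-0.966) for CG18095. For CG6654 they were CG18853 (-0.993), Hsc70-2 (-0.991) and lncRNA:CR45284 (-0.991). For CG18853 and lncRNA:CR45284 they were disp, asRNA:CR45822 and CG6654, all between -0.993 and -0.990.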

How the data were processed

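Per the submitters' processing notes, the authors used STAR 2.6.0c, RSEM 1.3.1 and the dm6 genome. The deposited table gives, per transcript, expected counts as whole numbers, and FPKM and TPM computed by the authors. FPKM was not used beyond a check of its unit. The table held 35536 transcripts, and the expected counts and TPM were summed per gene. Whether the authors counted by strand is not given in the sources used here. Column names of the control ZT16 libraries lacked the digit 2 of the label and were assigned by their time and number, and every column had a library.

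The count model was edgeR 4.0.16 (R 4.3.3), as 1 fit of 4 group means over the 12 libraries (8 residual degrees of freedom), with TMM, filterByExpr at a minimum count of 10 and the robust quasi-likelihood F test. Benjamini-Hochberg adjustment ran over the 10717 genes tested, once for each comparison, with calls at an adjusted p under 0.05. The SE was obtained from the log2 fold change and F, as its size over the root of F. CPM is the count over the TMM-scaled library size. Pooled ratios are sums of counts over a group, with an exact binomial interval at 95%. Time was tested where the mean of the genotype was at least 1 CPM. On simulated data with 10612 genes for knockdown against control at ZT8, the share found was 62% at a 1.5-fold change, 72% at 2-fold and 96% at 4-fold, with 9 false among 173 calls.

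Alternatives were DESeq2 1.42.0, its size factors, no filter, only the libraries of the comparison, a replicate block, leaving out each library, limma 3.58.1 on log2(TPM + 0.1), and other distances and thresholds. Replicate numbers are those of the sample titles, which at ZT8 mostly differ from the numbers within the library names, and no label says that a number marks a shared batch. The main fit treated all libraries as unpaired, and the replicate block was an alternative only, run between genotypes and for time in each genotype. Between the times in knockdown heads each same-numbered pair deviated together with r above 0.1 (0.106, 0.109 and 0.127), which the main tests did not use. No source says that libraries came from separate groups of flies, so p values measure the spread between these libraries. Named neighbours are those that overlap one of the 5 genes, the nearest tested gene on each side, and those within 50 kb called with an absolute log2 fold change of at least 1. The members and lists were chosen with earlier results of these data known. Strand and transposable elements were read from the BDGP6 annotation of Ensembl, in which 17100 genes had the same coordinates as in the table. Sequences of the genes were not analysed here.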

Additional observations from a re-analysis of the deposited data

Results flagged for a closer look

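The genes screened here were CG6654, phr, the neighbours named by rule and the called methuselah genes. In 3 of them the knockdown effect at ZT16 differed from that at ZT8 by the interaction test, beside 4.18% of all genes tested. DNApol-zeta, named after its values were seen and not screened here, also passed (-0.56 ± 0.11 SE, adjusted p = 0.0234 by edgeR). For bgm, the next tested gene to the left of hll on 2L, the effect at ZT16 minus that at ZT8 was 1.14 ± 0.18 SE on the log2 scale (adjusted p = 0.0181 by edgeR). The call ended without control ZT8 replicate 2 (0.0578), knockdown ZT16 replicate 1 (0.0620) or control ZT16 replicate 3 (0.0541). For nAChRalpha5 the difference was 0.41 ± 0.097 SE (adjusted p = 0.0417 by edgeR), and it ended without any 1 of 11 libraries, control ZT8 replicate 1 being the exception, with adjusted p values of up to 0.127. For mthl3, of the family of mthl8, the difference was -1.08 ± 0.26 SE (adjusted p = 0.0437 by edgeR), and it ended without any 1 of 10 libraries, control ZT8 replicate 1 and knockdown ZT8 replicate 3 being the exceptions, with adjusted p values of up to 0.127. No cause was tested for these differences.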

How the results depend on the processing

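Called neighbours numbered 10 (ZT8), 14 (ZT16) and 20 (both times) of 49 tested. These counts became 4, 7 and 10 of 20 tested within 10 kb, and 18, 24 and 32 of 89 tested within 100 kb. With 1 library left out they ran from 5 to 12 at ZT8, from 11 to 16 at ZT16 and from 18 to 22 over both times. The shares over all genes then ran from 6.21% to 25.2%, from 11.9% to 25.4% and from 20.9% to 34.4%. With the replicate block the counts were 9, 14 and 20, beside 15.3%, 19.8% and 27.7% over all genes. The change of mthl8 with time in control heads was called with the replicate block (-0.33, adjusted p = 0.0179) and with only the control libraries (-0.36, adjusted p = 0.0394), and not otherwise. The cause was not tested. In knockdown heads the change of CG6654 with time turned to 0.0041 without knockdown ZT8 replicate 1 (range -0.14 to 0.0041), and its interaction turned to -0.0083 without knockdown ZT8 replicate 3 (range -0.0083 to 0.14), neither of them called. That of bgm in knockdown heads, also not called, ran from -0.11 to 0.075. With 1 library left out, log2 ratios of knockdown to control ran from -8.82 to -6.20 (mthl8, ZT8), -10.1 to -9.36 (mthl8, ZT16), 8.52 to 9.19 (CG18853, ZT8), 7.99 to 8.65 (CG18853, ZT16), 2.87 to 6.90 (CG18095, ZT16) and 7.12 to 7.93 (lncRNA:CR45284, ZT8). Where a group is at 0 the bound itself moves, because fewer libraries share the 3 counts. The 61 on and off genes became 135 at 0.5 and 2 CPM and 101 on TPM, and 9 to 69 with 1 library left out. The calls of hll at ZT8 (0.0588) and of mthl14 over both times (0.0646) ended with the replicate block. Over both times the block gave 11 higher and 9 lower neighbours against 12 higher and 8 lower without it, so calls of single neighbours changed behind the same total. Among the single genes recomputed, the block changed no other call beyond that of mthl8 with time. Between genotypes the replicate numbers are shared numbers only. At ZT16 each knockdown library did correlate best with its own number, but all coefficients were small. They were 0.014 to 0.039 for the same number and -0.021 to 0.023 for the best other number, and no pairing follows from them. At ZT8 the own number was best for replicate 1 alone. Groups of 3 libraries limit the finding of small changes, as 62% of simulated 1.5-fold changes were found at ZT8.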
